A study of Homo sapiens with 6 samples.

Results

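The PRPF19 complex is a group of proteins that joins the spliceosome, the machine that removes introns from newly made transcripts. The 10 genes described here encode PRPF19 itself and its partners CDC5L, PLRG1, BCAS2, CTNNBL1, CWC15, CRNKL1, SYF2, XAB2 and ISY1. PRPF19 came to attention because its level fell strongly in the comparison described here, and its partners were then listed from what is known of the complex. Every value of that comparison for these genes is therefore a description. Counts of members past the adjusted threshold are given beside counts or shares over all genes, and are no test of these genes. Of the 10 genes, 9 were measured among the 18132 genes that the arrays named by a single symbol. They were read by 17 probe sets, short sets of probes that each report on a transcript. CRNKL1 was not analysed here, because no probe set with that single symbol was used.

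All samples were cultures of DLD1, an established human colorectal adenocarcinoma line. In 3 samples the cells carried a lentivirus for a hairpin RNA (shRNA) directed at CDKL1, a serine/threonine kinase related to the cyclin-dependent kinases. In the other 3 they carried lentivirus with a control shRNA, so all 6 samples had been infected and expressed a hairpin. The labels do not give the hairpin sequences, the number of hairpins or the time after infection, and each sample was read on 1 Affymetrix array.

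The spliceosome assembles on each intron from small nuclear ribonucleoproteins (snRNPs) and many further proteins. The PRPF19 complex enters as the spliceosome is activated, when the U4 snRNP leaves and the catalytic RNA centre forms, and it helps to hold that centre in place. PRPF19, CDC5L, PLRG1 and BCAS2 form a stable core. CTNNBL1 and CWC15 bind to this core. CRNKL1, SYF2, XAB2 and ISY1 sit around the catalytic centre or the intron. PRPF19 is also a ubiquitin ligase of the U-box class, and it acts at sites of DNA damage. All values below are log2 levels normalised by the authors with robust multi-array averaging (RMA), so a step of 1 is a doubling, and differences are CDKL1 shRNA minus control shRNA.

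Promoter sequences are shown for PRPF19, the member whose level differed most between the groups, and for CDC5L, its core partner, whose brightest probe set differed little. Both were taken from RefSeq on GRCh38.p14 and run from 250 bases before to 50 bases after the annotated start of the gene. The PRPF19 window is chr11:60906536-60906835 on the minus strand and the CDC5L window is chr6:44387456-44387755 on the plus strand. Capitals mark matches on either strand to CCAAT (the CCAAT box), CCGGAA (the core bound by ETS factors), GGGCGG (the GC box) and ACTACA (letters within the element bound by ZNF143). These motifs were chosen after the sequences had been read, and the capital runs do not overlap.
PRPF19: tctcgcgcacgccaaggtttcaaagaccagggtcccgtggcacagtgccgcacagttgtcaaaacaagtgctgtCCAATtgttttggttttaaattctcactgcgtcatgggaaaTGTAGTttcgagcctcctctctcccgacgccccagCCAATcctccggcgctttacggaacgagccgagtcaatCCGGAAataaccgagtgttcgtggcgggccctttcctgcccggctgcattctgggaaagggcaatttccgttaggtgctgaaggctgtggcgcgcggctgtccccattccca
CDC5L: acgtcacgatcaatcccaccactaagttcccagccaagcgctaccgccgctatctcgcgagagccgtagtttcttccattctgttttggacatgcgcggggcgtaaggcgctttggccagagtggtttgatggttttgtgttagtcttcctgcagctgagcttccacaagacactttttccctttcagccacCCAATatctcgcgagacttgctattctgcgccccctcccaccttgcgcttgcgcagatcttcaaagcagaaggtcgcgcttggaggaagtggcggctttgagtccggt

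The PRPF19 window held CCAAT at 2 places, CCGGAA at 1 and ACTACA, on the opposite strand, at 1. The CDC5L window held CCAAT at 1 place and none of the other letters. All 10 members had a promoter entry. ACTACA was found in 1 of the 10 member promoters, that of PRPF19, and in 8.95% of 27305 promoters of the same length. CCAAT was found in 6 of 10 members and 35.7% of all promoters, CCGGAA in 6 of 10 and 17.6%, and GGGCGG in 6 of 10 and 44.6%. These are matches of letters only, and no binding was measured.

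The targeted gene and the state of the RNA were examined first. CDKL1 had log2 levels of 4.25, 4.20 and 4.08 in CDKL1 shRNA arrays, against 4.51, 4.42 and 4.17 in control arrays. The difference was -0.19 (SE 0.09) and missed the threshold (limma, adjusted p = 0.219), although without control shRNA replicate 3 it was -0.29 and passed (limma, adjusted p = 0.0489). The levels lay within the 2.97 to 4.92 spanned by background control probe sets, so this probe set gives no check of the knockdown. The ACTB control probe sets read the transcript at its 3' and its 5' end, and the 3' excess, a sign of RNA quality, was 1.52, 1.73 and 1.55 on the log2 scale in CDKL1 shRNA arrays, against 1.40, 1.41 and 1.39 in control arrays. The groups did not overlap (exact two-sided permutation p = 0.1, the smallest that 3 arrays against 3 allow). The GAPDH 3' excess was 0.25, 0.30 and 0.28 in CDKL1 shRNA arrays, against 0.19, 0.20 and 0.22 in control arrays. These groups did not overlap either (exact two-sided permutation p = 0.1). A fit with the ACTB excess as a covariate therefore cannot fully separate it from the group. All 9 colorectal epithelial markers lay above the background range, VIL1 at 5.57 and LGALS4 at 5.37 nearest to it. KRT20 rose by 0.52 (limma, adjusted p = 0.000746). VIL1 fell by 0.57 (limma, adjusted p = 0.019), a call lost without control replicate 1 or 3 (adjusted p = 0.0639 and 0.0601). With the ACTB covariate the KRT20 difference was 0.49 and that of VIL1 -0.16, and neither passed (limma, adjusted p = 0.0651 and 0.507). KRT8, KRT18 and CDH1 were lower by 0.15, 0.13 and 0.12 and missed the threshold (limma, adjusted p = 0.0502, 0.0651 and 0.116). In all, 5 of the 9 epithelial markers had an unadjusted p under 0.05. None of 8 fibroblast or 4 measured leukocyte markers passed the limma test, and 0 of them had an unadjusted p under 0.05. The leukocyte marker PTPRC, at 3.55, and 4 of the 8 fibroblast markers, COL3A1, DCN, LUM and FAP at 3.05 to 4.17, lay within the background range, where a change cannot be seen. The other 4 fibroblast and 3 leukocyte markers lay above it, up to 6.25 for PDGFRB, which is higher than VIL1 and LGALS4. A level above this range therefore does not by itself show expression.

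PRPF19, the ubiquitin ligase and namesake of the complex, was the member that stood far apart between the groups. Its only probe set, 11716736_at, read 9.39, 9.68 and 9.59 in CDKL1 shRNA arrays, against 10.70, 10.59 and 10.63 in control arrays. Every CDKL1 shRNA array lay below every control array, and the gap between the groups was several times the spread within either. The level averaged 9.56 ± 0.15 in CDKL1 shRNA arrays and 10.64 ± 0.06 in control arrays (SD, n = 3 each). The difference was -1.09 (SE 0.08), which is 2.12-fold lower or a change of -52.9%. Among all 18132 genes it was the fall of rank 9, which is the value for which the gene was picked. In a bulk sample, fewer cells that express a gene and less RNA per cell cannot be told apart.

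The size of the PRPF19 difference depended little on any single array. With 1 array left out it ran from -1.15, without CDKL1 shRNA replicate 2, to -1.004, without CDKL1 shRNA replicate 1. When the ACTB 3' excess of each array was added to the model it was -1.29. PRPF19 had no other probe set of that single symbol, so its difference rests on 1 reading per array.

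**Figure D1:**
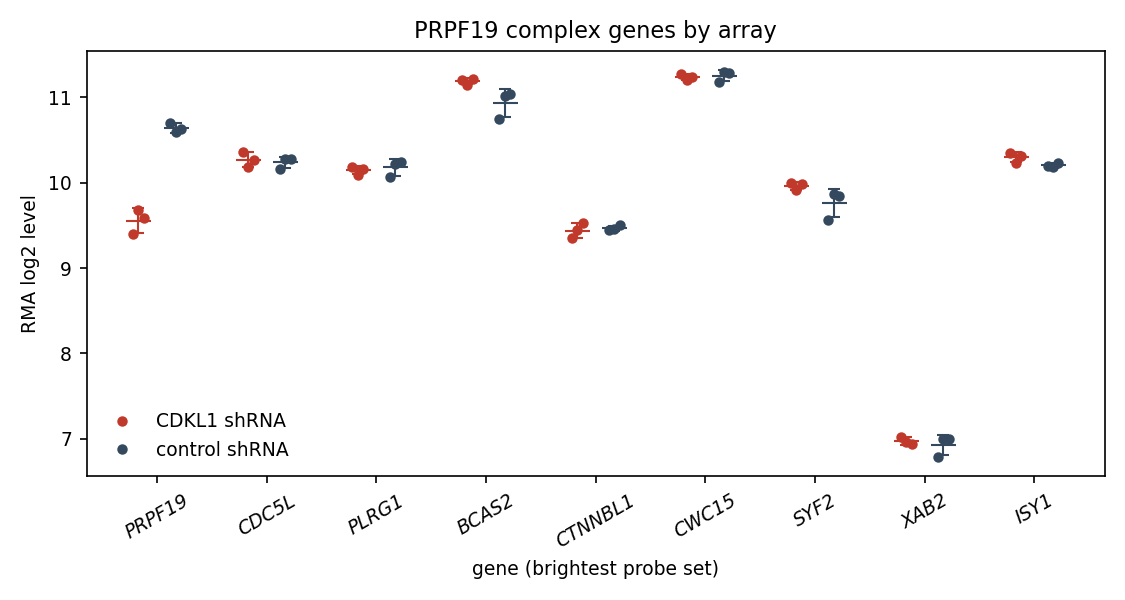
RMA log2 levels (y axis) of the 9 measured PRPF19 complex genes (x axis, brightest probe set of each), with CDKL1 shRNA arrays in red to the left of control shRNA arrays in dark blue; points are arrays, bars are the mean ± SD, n = 3 each, and the y axis does not start at 0. PRPF19 averaged 9.56 in CDKL1 shRNA arrays and 10.64 in control arrays, while the other genes lay close together in the groups.

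The other core members did not share a difference of that size. CDC5L, a Myb-related protein that binds PRPF19 and PLRG1, read 10.36, 10.19 and 10.26 in CDKL1 shRNA arrays, against 10.16, 10.27 and 10.28 in control arrays by its brightest probe set. The groups overlapped, with a difference of 0.03 (SE 0.06). Its second probe set, 11719080_a_at, read 10.24, 9.99 and 9.97 in CDKL1 shRNA arrays, against 10.25, 10.31 and 10.35 in control arrays. Here every CDKL1 shRNA array was lower, though CDKL1 shRNA replicate 1 missed the lowest control array by little, and the difference was -0.24 (SE 0.08). With the ACTB covariate the difference of this probe set was -0.09. The probe sets of CDC5L thus differed in sign.

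PLRG1, a protein of WD40 repeats that binds CDC5L, read 10.19, 10.09 and 10.16 in CDKL1 shRNA arrays, against 10.07, 10.22 and 10.25 in control arrays by its brightest probe set. The groups overlapped, and the difference was -0.03 (SE 0.06). A second probe set, 11750064_a_at, read 9.82, 9.70 and 9.82 in CDKL1 shRNA arrays, against 9.97, 10.09 and 10.08 in control arrays. All CDKL1 shRNA arrays were below all control arrays in this probe set, with a difference of -0.27 (SE 0.06), or -16.9%. Its difference was -0.30 to -0.23 with 1 array left out and -0.15 with the ACTB covariate. The other PLRG1 probe sets had differences of -0.15 and -0.09, so all 4 were negative, from -0.27 to -0.03. Probe sets of 1 gene share its RNA and are no replicates of each other.

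BCAS2, the small core subunit first found as a gene amplified in breast carcinoma, lay on the other side. It read 11.20, 11.15 and 11.22 in CDKL1 shRNA arrays, against 10.75, 11.02 and 11.04 in control arrays. All CDKL1 shRNA arrays were above all control arrays, and control replicate 1 was well below the other controls. The difference was 0.25 (SE 0.08), or 19.2%, and without control replicate 1 it was 0.16.

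The proteins that bind the core showed small differences. CTNNBL1, an armadillo repeat protein that binds CDC5L, read 9.35, 9.44 and 9.53 in CDKL1 shRNA arrays, against 9.45, 9.46 and 9.50 in control arrays. The CDKL1 shRNA values spanned the control values, and the difference was -0.03 (SE 0.06). CWC15, a small spliceosome protein, read 11.27, 11.21 and 11.24 in CDKL1 shRNA arrays, against 11.18, 11.29 and 11.29 in control arrays. The groups overlapped here too, and the difference was -0.02 (SE 0.05). The dimmer probe set of CWC15 gave 0.05 (SE 0.06). The 95% interval of the brightest probe set was -0.16 to 0.10 for CTNNBL1 and -0.13 to 0.10 for CWC15.

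The members placed around the catalytic centre and the intron had positive differences by their brightest probe sets. SYF2, which in yeast works beside Isy1 in the same complex, read 10.00, 9.91 and 9.99 in CDKL1 shRNA arrays, against 9.57, 9.87 and 9.85 in control arrays. All CDKL1 shRNA arrays were higher, control replicate 1 was again the lowest array, and the difference of 0.20 (SE 0.08) was 0.11 without it. A second SYF2 probe set gave 0.11 (SE 0.06), and the last, at a mean of 3.69, lay within the background range. ISY1, whose yeast counterpart affects the accuracy of splicing, read 10.35, 10.24 and 10.31 in CDKL1 shRNA arrays, against 10.20, 10.18 and 10.23 in control arrays. The groups did not overlap, by a narrow margin, with a difference of 0.10 (SE 0.05), and its other probe set gave 0.05 (SE 0.05). The brightest ISY1 probe set carries the suffix _x, which marks probes that can bind other transcripts. XAB2, which also binds the repair protein XPA and takes part in transcription-coupled repair, read 7.02, 6.97 and 6.93 in CDKL1 shRNA arrays, against 6.78, 7.001 and 6.99 in control arrays. Its groups overlapped, and the difference of 0.05 (SE 0.07) turned to -0.02 without control replicate 1.

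**Figure D2:**
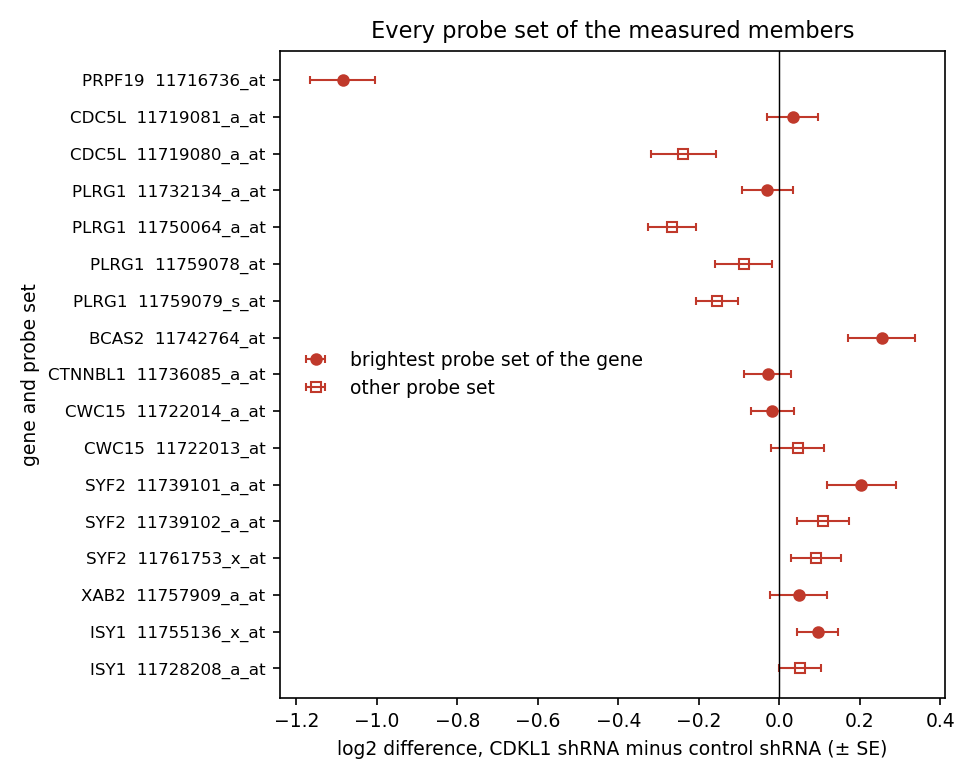
Log2 difference, CDKL1 shRNA minus control shRNA (x axis), of each of the 17 probe sets of the measured members (y axis), with error bars of ± SE from the linear model over 3 arrays per group; filled circles are the brightest probe set of a gene and open squares the others. PRPF19 stands at -1.09, while all other probe sets lie between -0.27 and 0.25.

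Read across the complex, 1 of 9 measured members was past the threshold of adjusted p 0.05 in the fit over all genes (limma), namely PRPF19, whose place there follows from how it was picked. None of the other 8 was past it, and 2 of these, BCAS2 and SYF2, had an unadjusted p under 0.05. The share of all genes under that unadjusted cutoff was not taken, so nothing is read from these 2. Over all genes 16.8% were past the adjusted p threshold, 7.79% lower and 8.97% higher, or 1413 and 1627 genes. This balance turned to 1689 lower and 1542 higher after a further quantile normalisation. When genes brighter than the median gene were fitted alone, 3 of the 8 members kept were past it, with BCAS2 and SYF2 added, against 44% of those genes. The groups did not overlap for 4 of 9 members, PRPF19 below and BCAS2, SYF2 and ISY1 above, against 35.7% of all genes. Since the list was built around a gene picked from this contrast, nothing is read from these counts. Of the 17 probe sets taken one by one, 2 were past the threshold over all probe sets, those of PRPF19 and PLRG1 named above, both lower, against 5.34% of all probe sets lower. The PLRG1 probe set was still past it when control replicate 1 was left out, and not when any other array was left out. The second CDC5L probe set was past it only without CDKL1 shRNA replicate 1. The median difference was 0.03 over the 9 members and -0.01 over all genes. For the 8 partners of PRPF19 the differences ran from -0.03 to 0.25, and their 95% intervals together spanned -0.17 to 0.44. A fall of the size seen for PRPF19 lies outside each of these intervals.

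Within single arrays the partners moved little relative to their own control means. In CDKL1 shRNA replicates 1, 2 and 3 PRPF19 stood at -1.25, -0.96 and -1.05 from its control mean on the log2 scale. The 8 partners stood on average at 0.10, 0.03 and 0.08 from theirs in the same arrays. In control replicate 1 all 8 partners lay below their control means, at -0.10 on average, while PRPF19 stood at 0.06 from its own. In control replicate 3 all 8 lay above, at 0.06 on average, from means that include the low replicate 1. The positive differences of BCAS2, SYF2 and XAB2 were thus measured against a control group with 1 low array, whose part in each is given by the values without it. The share of all genes below or above their control means in these arrays was not taken. Nothing particular to the partners is therefore read from these counts.

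**Figure D3:**
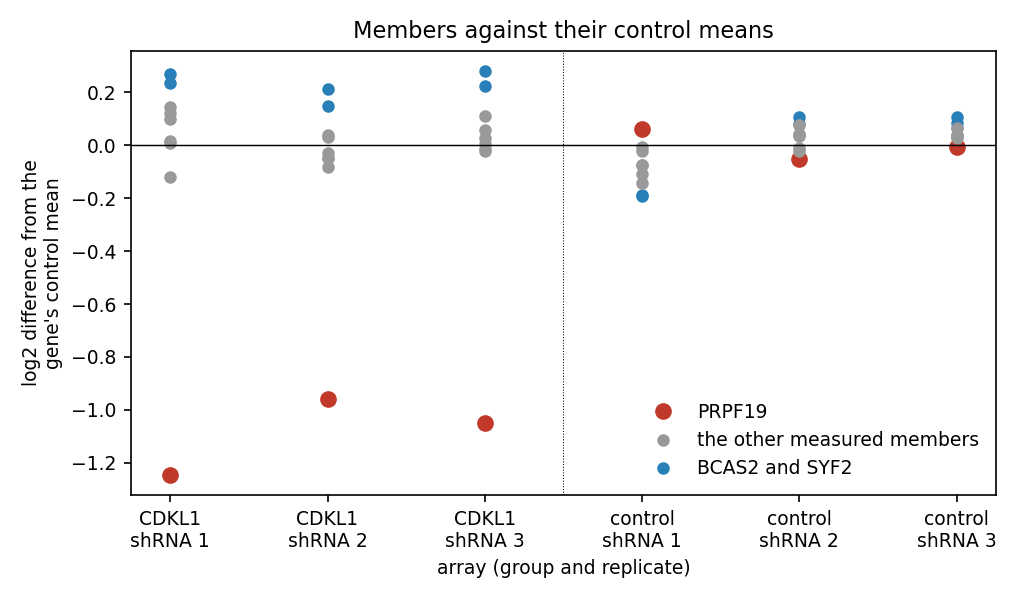
Log2 difference of each measured member from its own control mean (y axis) in each of the 6 arrays (x axis), CDKL1 shRNA arrays to the left of the dotted line and control shRNA arrays to the right. PRPF19 (large red points) stands at -1.25 to -0.96 from its control mean in the CDKL1 shRNA arrays; BCAS2 and SYF2 (blue) are the highest there and the lowest in control replicate 1.

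Genes of the spliceosome outside the complex were grouped into 9 lists by the particle or step they belong to. Of 93 listed genes 91 were measured, of which 12 rose, 4 fell and 75 did not pass (limma, adjusted over all genes). After a further quantile normalisation the split was 10 and 6. That is 17.6% past the threshold, near the 16.8% of all genes. Differences ran from -0.25 to 0.32, so none of the 91 reached the size of the PRPF19 difference, and their median was 0.03. With 1 array left out the count of 16 fell to a range of 6 to 11. The count over all genes fell from 3040 to a range of 1633 to 2399 in the same fits. Dropping a control array left 11 spliceosome genes (replicate 1 or 2) or 7 (replicate 3). Dropping a CDKL1 shRNA array left 9 (replicate 1) or 6 (replicate 2 or 3). With the ACTB covariate 0 of the 91 were called, and 219 of all 18132 genes (limma). Of the 91, 11 had an unadjusted p under 0.05 there. Calls were thus lost over all genes too, and nothing particular to the spliceosome genes is read from these losses. All 16 genes called without the covariate had the same sign with it. The median size of their differences was 0.21, against 0.22 without it, and the median SE 0.084, against 0.043. These genes were picked for their differences in the same arrays, so their signs and sizes are no support for the calls.

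The list nearest to the complex holds proteins that arrive with it or bind the same stage, such as SNW1, RBM22, which contacts the catalytic RNA, and the intron-binding helicase AQR. Of these 10 genes 0 passed (limma), 2 had an unadjusted p under 0.05, and the median difference was 0.04. SR proteins, which bind exons and guide splice site choice, likewise had 0 of 12 past the threshold (limma). Of these 12, 2 had an unadjusted p under 0.05, and the median was 0.01. Over all genes 16.8% were past the threshold, and the share under the unadjusted cutoff was not taken. Nothing is read from the counts of lists this small.

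U1 and U2 snRNP proteins recognise the splice sites first. Of 15 such genes 2 rose (all genes, 8.97%), 1 fell (all genes, 7.79%) and the median was 0.06. SF3A3, a U2 subunit, rose by 0.25 (SE 0.04, limma adjusted p = 0.00656), and SNRPA, which binds U1 RNA, fell by 0.25 (SE 0.05, limma adjusted p = 0.012). PHF5A, of the SF3B part of U2, rose by 0.22 (SE 0.04, limma adjusted p = 0.0146). Its call was lost without CDKL1 shRNA replicate 2 or 3 or control replicate 3, at differences of 0.21 to 0.22 (adjusted p = 0.0503 to 0.0603). Of 5 measured splice site recognition factors, 1 rose (all genes, 8.97%) and 0 fell (all genes, 7.79%). This was CHERP, which rose by 0.15 (limma, adjusted p = 0.0478). Its call was lost whichever array was left out (adjusted p = 0.0845 to 0.134).

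The Sm and LSm proteins form rings around the small nuclear RNAs. Of 13 measured genes 1 rose (all genes, 8.97%), 2 fell (all genes, 7.79%) and the median was 0.03. LSM2 fell by 0.25 (limma, adjusted p = 0.00737). LSM4 fell by 0.19 (limma, adjusted p = 0.0183), and this call held only without control replicate 1 when arrays were left out (adjusted p = 0.0508 to 0.0676 without each of the others). SNRPD1 rose by 0.20 (limma, adjusted p = 0.0325), and its call held only without control replicate 2 (adjusted p = 0.0673 to 0.0908 without each of the others).

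The 9 U4/U6 and tri-snRNP proteins include PRPF3, a known ubiquitylation substrate of PRPF19. Of these 9, 1 rose (all genes, 8.97%) and 0 fell (all genes, 7.79%). SART1 rose by 0.32 (SE 0.05, limma adjusted p = 0.00658). PRPF3 had a difference of 0.17 and did not pass (limma, adjusted p = 0.0506). Of the 8 U5 snRNP proteins 1 rose (all genes, 8.97%) and 1 fell (all genes, 7.79%). PRPF6, which links U5 to U4/U6, rose by 0.29 (limma, adjusted p = 0.0195). SNRNP200, the helicase that unwinds U4 from U6, fell by 0.20 (limma, adjusted p = 0.0201). PRPF6 lost its call without CDKL1 shRNA replicate 3 or control replicate 1 or 2, at differences of 0.23 to 0.28 (adjusted p = 0.0524 to 0.0695). SNRNP200 lost its call without any 1 CDKL1 shRNA array or control replicate 3, at differences of -0.20 to -0.19 (adjusted p = 0.054 to 0.0753).

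In the list of spliceosome helicases and step factors 5 of 13 genes rose (all genes, 8.97%), 0 fell (all genes, 7.79%) and the median was 0.08, and 2 of the 5 calls were lost whichever array was left out. PRPF18, a factor of the second catalytic step, rose by 0.27 (SE 0.05, limma adjusted p = 0.00822). CWC25, a factor of the first step, rose by 0.28 (SE 0.06, limma adjusted p = 0.017), a call lost without CDKL1 shRNA replicate 1 or 2 (adjusted p = 0.0548 and 0.0564). DDX42, a helicase that binds the U2 particle, rose by 0.20 (limma, adjusted p = 0.0193), a call lost without any 1 CDKL1 shRNA array or control replicate 3 (adjusted p = 0.0507 to 0.0747). The genes of the 2 lost calls, named after their values were seen, were the second-step factors SLU7 (0.22) and CDC40 (0.16), with adjusted p = 0.0522 to 0.126 in the fits with 1 array left out (limma). CDC40 had a positive difference in only 1 of its 3 probe sets, and the mean of these gave -0.04. The exon junction complex marks spliced exon borders, and of its 6 genes 1 rose (all genes, 8.97%) and 0 fell (all genes, 7.79%). This was CASC3, which rose by 0.21 (limma, adjusted p = 0.0166). Its call was lost without CDKL1 shRNA replicate 2 or 3 or control replicate 3 (adjusted p = 0.0509 to 0.068).

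PRPF19 and XAB2 also have partners in DNA repair. Of 11 such genes 2 fell (all genes, 7.79%), 0 rose (all genes, 8.97%) and the median was -0.03. RPA2, a subunit of RPA, the single-strand DNA-binding protein that PRPF19 ubiquitylates after DNA damage, fell by 0.20 (SE 0.04, limma adjusted p = 0.0142), a call lost without control replicate 2 or 3 (adjusted p = 0.0546 and 0.0538). SETMAR, a repair protein reported to interact with PRPF19, fell by 0.32 (SE 0.07, limma adjusted p = 0.0174), while its other probe set gave 0.11 and the mean of both gave -0.10. The SETMAR call was lost without CDKL1 shRNA replicate 1 or control replicate 1 or 2 (adjusted p = 0.0524 to 0.0623). Of 6 other ubiquitin ligases of the U-box class, 2 rose (all genes, 8.97%) and 0 fell. UBE4A rose by 0.39 (SE 0.05, limma adjusted p = 0.00317) with 1 of its 3 probe sets of the opposite sign, at -0.17. PPIL2 rose by 0.21 (limma, adjusted p = 0.0393), with 3 of its 8 probe sets of the opposite sign, and its difference turned to -0.07 when these were averaged. Its call was lost whichever array was left out (adjusted p = 0.0542 to 0.122).

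**Figure D4:**
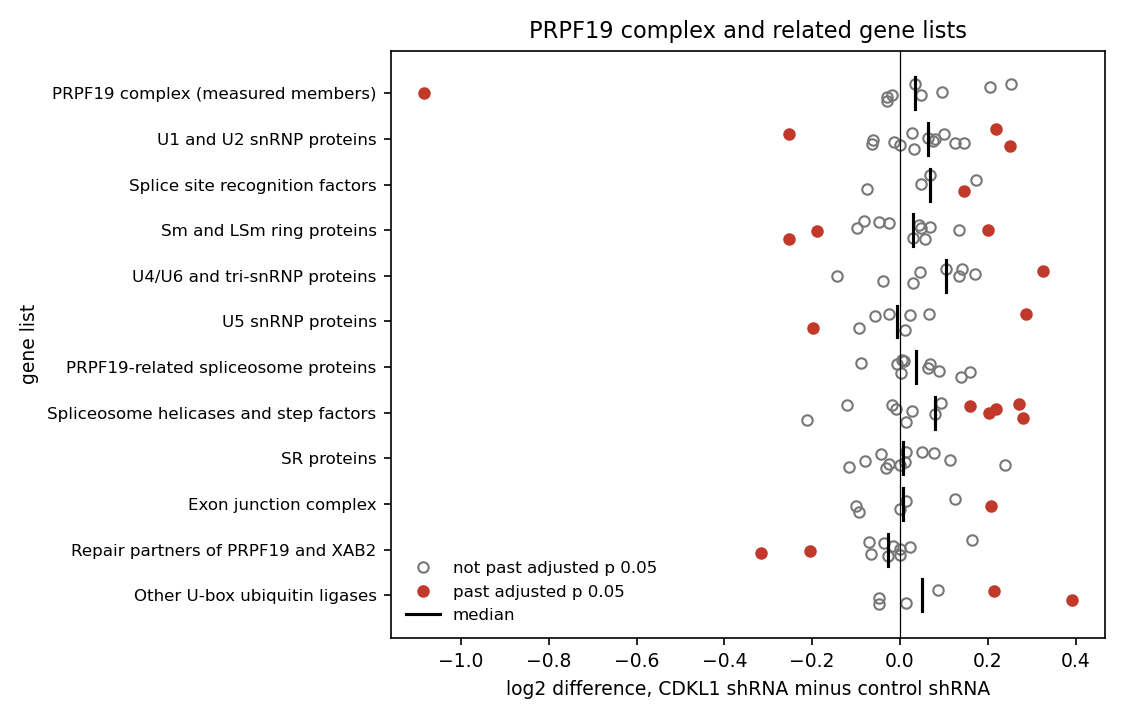
Log2 difference, CDKL1 shRNA minus control shRNA (x axis), of single genes in the PRPF19 complex and in 11 related lists (y axis, points spread vertically for legibility); filled points were past an adjusted p of 0.05 (limma, all genes), open points were not, and black bars are list medians. The genes of the related lists lie between -0.32 and 0.39, and PRPF19 lies at -1.09.

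The genes whose values over the 6 arrays lay nearest to those of PRPF19 were sought among all 18131 other genes, by the root mean square distance of log2 levels after each gene's mean was subtracted. The nearest were PTK7 (distance 0.06), a catalytically inactive receptor kinase, TEF (0.08), a bZIP transcription factor, and IL33 (0.08), a cytokine of the interleukin-1 family. PFKFB2 (0.09), which sets the level of a regulator of glycolysis, and TRAF4 (0.09), an adaptor of receptor signalling, followed. The median distance over all genes was 0.55. PTK7 read 7.01, 7.42 and 7.37 in CDKL1 shRNA arrays, against 8.46, 8.25 and 8.41 in control arrays. As for PRPF19, CDKL1 shRNA replicate 1 was the lowest array and control replicate 1 the highest. None of these 5 genes belongs to the spliceosome lists. Of the partners, CTNNBL1 came nearest to PRPF19, at 0.53, and BCAS2 was farthest, at 0.69, rank 17164 of 18131. These distances follow from differences of this same contrast and describe 6 arrays in 2 groups.

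**Figure D5:**
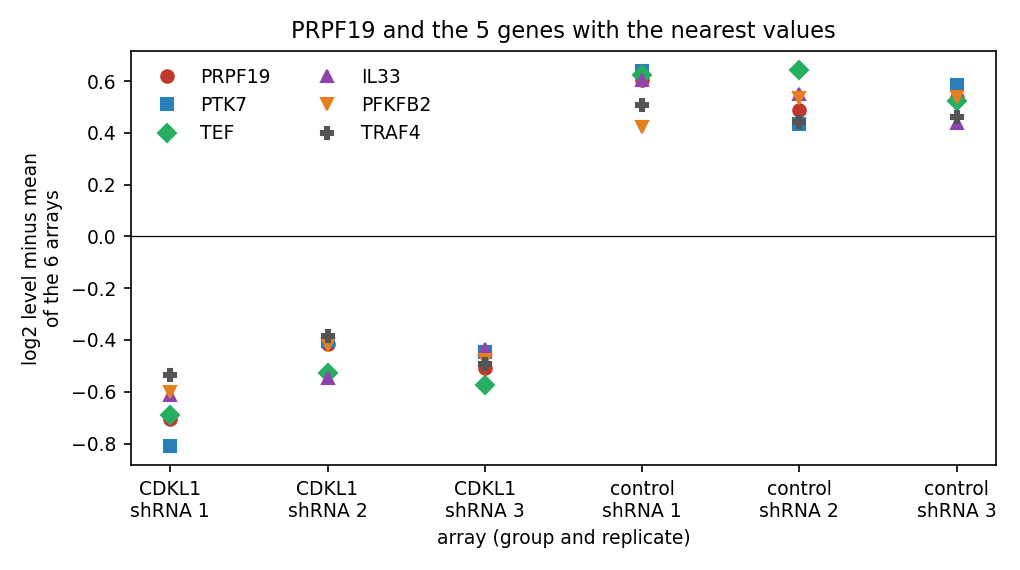
Log2 level minus the mean of the 6 arrays (y axis) for PRPF19 and the 5 genes with the nearest values, in each array (x axis), CDKL1 shRNA arrays left of control shRNA arrays. All 6 genes lie below 0 in the 3 CDKL1 shRNA arrays and above 0 in the 3 control arrays.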

How the data were processed

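Total RNA of 6 DLD1 cultures was read on 1 Affymetrix array each. The deposited values are log2 expression values that the authors made with RMA, per the submitters' processing notes, its version and settings being not given in the sources used here. It quantile-normalises arrays and compresses changes of dim probe sets. The number of arrays limits precision, and since no label says that cultures or infections were separate, p-values reflect spread among these arrays that may be technical. Array medians lay between 6.64 and 6.70.

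Probe sets with exactly 1 symbol in the platform annotation (44988 of 49395) were used. 1832 had several symbols, 2473 had none and 102 were controls. Each gene was read by its brightest probe set over all arrays. In probe set names, _a marks probes shared by transcripts of 1 gene, and _s and _x probes that can bind other genes. Probe sets with _s or _x read SNRPA, SNRPD1, PHF5A, LSM4, SNRNP200, DDX42, CASC3, SETMAR and PPIL2 among the called list genes. IL33, among the nearest genes, was also read by 1 of these. Groups were compared in R 4.3.3 by lmFit and eBayes of limma 3.58.1, two-sided, with group as the only term. Adjustment was Benjamini-Hochberg over all 18132 genes, or over all 44988 probe sets where single probe sets were counted, with a threshold of 0.05. Background control probe sets were those with 10 to 16 G or C bases. On simulated data with the same 18132 genes, 50% of genes changed 1.25-fold, 82% changed 1.5-fold and 96% changed 2-fold were recovered. There 50 genes were changed at each fold, and 9 unchanged genes were called. In the data 3040 genes were called, so the cutoff set by the adjustment differs. The simulated shares are therefore not those of the reported fit. Alternatives were a replicate block, each array left out, a further quantile normalisation, subtraction of array medians, the mean of a gene's probe sets, brighter genes alone and the ACTB covariate.

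The members, gene lists and alternatives were chosen with earlier results of these data known. Named were all members, CDKL1, up to 3 called genes per related list with the smallest adjusted p, and the 5 genes nearest to PRPF19. Values of PRPF3, SLU7 and CDC40 were given outside this rule, as were those of cell type markers. U2AF1 and LSM8 had no probe set of a single symbol. Promoters came from RefSeq tables on GRCh38.p14. Summaries used pandas 2.3.3 under Python 3.11.15, and plots used matplotlib 3.10.9.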

Additional observations from a re-analysis of the deposited data

How the results depend on the processing

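The PRPF19 difference, for which the gene was picked, was -1.29 to -1.004 over the 12 alternatives, and -1.15 to -1.004 with 1 array left out, which is no independent support. The number of called members was 1 with any array left out, namely PRPF19, which follows from how it was picked. Among genes brighter than the median gene, a set that left out XAB2, 3 of 8 members were called, against 44% of the 9066 genes fitted. With 1 array left out, 1633 to 2399 genes were called in all, 6 to 11 spliceosome genes outside the complex and 9 to 13 genes over the 11 related lists (20 with all arrays), in fits that held fewer arrays. Among brighter genes, against the same 44%, 32 of 91 spliceosome genes and 37 genes of the related lists were called. With the ACTB covariate 219 genes were called in all, 0 of the spliceosome genes and 0 of the related lists (limma). Of these, 11 and 15 had an unadjusted p under 0.05, a cutoff at which the share of all genes was not taken. The median SE of the 16 spliceosome genes called without the covariate was 0.084 with it, against 0.043 without.

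The labels do not say whether arrays with the same replicate number belong together. Deviations of same-numbered arrays from their group means correlated across genes at r = -0.03, -0.12 and 0.07, and not every array correlated best with its own number. With 3 arrays per group these values cannot settle whether same-numbered cultures were handled together. With a replicate block 1803 genes were called in all, 8 spliceosome genes and 9 of the related lists, and PRPF19 was at -1.09. The replicate block and the fit of brighter genes leave each difference unchanged by construction, and leaving out 1 array can move it only within limits. For the 8 partners, 89 of 95 alternative values moved by less than 1 SD, a count that is therefore no sign of stability. The other 6 were CDC5L and PLRG1 with probe sets averaged, at -0.10 and -0.13, and CDC5L, PLRG1, CWC15 and ISY1 with the ACTB covariate, at 0.17, 0.05, 0.03 and 0.20. Levels near the background of 2.97 to 4.92 cannot show a change.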
